A study of Mus musculus with 14 samples.

Results

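The expression of 10 genes of alternative macrophage activation was followed in mouse bone marrow derived macrophages with and without Elavl1: Arg1, Chil3 (also named Chi3l3), Retnla, Mrc1, Clec10a, Mgl2, Ccl24, Il4ra, Pdcd1lg2 and Tgm2. The 10 genes were chosen by name. Of the 21444 genes in each mRNA table, 9 of these 10 had a row, and Retnla, which had none, was not analysed here at the mRNA level. Of these 9, 6 passed the filter on low counts and were tested among 14019 genes (Mrc1, Il4ra, Tgm2, Clec10a, Mgl2 and Chil3), whereas Arg1, Ccl24 and Pdcd1lg2 were too low to be tested.

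The series asks how ELAVL1, an RNA-binding protein of AU-rich and U-rich sequences also known as HuR, affects the binding of miRNAs to transcripts in macrophages. Wild type cells (WT) were ELAVL1f/f, that is homozygous for the floxed gene with no Cre, and knockout cells (KO) were ELAVL1f/f, LysM-Cre, both on the C57BL/6 strain. LysM-Cre is driven from the lysozyme 2 locus and acts in myeloid cells, so the Cre insertion and the loss of Elavl1 are carried by the same group and cannot be told apart here. Marrow cells were grown in 20% L929-conditioned medium, a source of the growth factor CSF1, for 6 days by the growth protocol and for 7 days by the design text. The labels name no IL-4, IL-13 or other stimulus for either group. Polyadenylated mRNA was sequenced in 4 WT and 4 KO libraries, numbered 1 to 4 in each genotype, beside 4 small RNA libraries in all (WT numbers 1 and 2, KO numbers 3 and 4) and 1 AGO2 PAR-CLIP library for each genotype. The labels do not tie a number to an animal, so the p-values below measure the spread between these libraries.

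In the textbook scheme, IL-4 and IL-13 bind receptors that share the IL-4 receptor alpha chain, Janus kinases phosphorylate STAT6, and STAT6 enters the nucleus and switches on a set of genes. That set includes the arginine-hydrolysing enzyme Arg1, the chitinase-like protein Chil3, the secreted protein Retnla (RELM alpha or FIZZ1), several sugar-binding surface receptors and the eotaxin Ccl24. Macrophages grown in CSF1 alone express some of these genes without IL-4, most of all the mannose receptor Mrc1.

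The AGO2 groups, clusters of reads on RNA held by the miRNA effector protein AGO2, are where the measured data bear on the sequence of these genes. Mrc1 carried the strongest of them, and its 3′ UTR group had the same ends in both libraries, chr2:14253495-14253520 on the plus strand of mm9. The 26 bases of that group are shown first with the AU-rich pentamer ATTTA in capitals, then with the match to bases 2 to 8 of miR-23a-3p in capitals.
Mrc1 3′ UTR group, ATTTA in capitals: ctATTTAttatctaattaatgtgatg
Mrc1 3′ UTR group, miR-23a-3p match in capitals: ctatttattatctaattAATGTGAtg
Both elements lie in the same group without overlapping.

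A pair of further Mrc1 groups, in the coding sequence and found in the WT library alone, held matches to abundant miRNAs, and are shown with the match in capitals. The first, at chr2:14216524-14216551, matches miR-27b-3p and miR-27a-3p over bases 2 to 8 followed by an A. The second, at chr2:14225740-14225762, matches miR-24-3p over bases 2 to 8. Of all 10747 WT coding groups, 1534 had a KO group with the same ends. Overlaps with other ends were not counted, so how often a WT group lacked any KO group was not shown.
Mrc1 coding group, miR-27 match: atatcaACTGTGAAcacctcaacaactg
Mrc1 coding group, miR-24 match: aaaacactactacCTGAGCCcac
The mature miRNAs, from RefSeq, are given with the seed (bases 2 to 8) in capitals. miR-27a-3p and miR-27b-3p share one seed, and miR-23a-3p, miR-27a-3p and miR-24-3p come from one gene cluster.
miR-23a-3p: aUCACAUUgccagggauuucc
miR-27b-3p: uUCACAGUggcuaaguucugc
miR-27a-3p: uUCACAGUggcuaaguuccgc
miR-24-3p: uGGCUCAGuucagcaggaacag

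The mRNA libraries held 8160789 (KO number 1) to 25030262 (KO number 4) counts. Elavl1 mRNA itself was not lower in the KO libraries (63.5 ± 2.00 CPM in WT and 69.5 ± 6.13 CPM in KO, SD, n = 4 each, where CPM is counts per 1000000 after TMM scaling) and did not check the labels. Whether the counted reads fall in the deleted part was not tested. Lyz2, the locus that carries the Cre, was lower in KO in 4 of 4 number pairs (12430 ± 2555 against 5067 ± 1004 CPM, log2 fold change -1.29, SE 0.10, edgeR adjusted p = 0.000472 with the replicate number as a block). Without the block its edgeR adjusted p was 0.9999. The related lysozyme gene Lyz1 was also lower in 4 of 4 pairs (log2 fold change -1.28, SE 0.08, edgeR adjusted p = 8.6e-05 with the block). How reads that fit both lysozyme genes were counted is not given here, so a drop beyond Lyz2 was not shown. The cause of the drop was not tested. Macrophage identity markers were high in all libraries, at a summed 32400 to 40100 CPM in WT and 26600 to 33300 CPM in KO, a sum that Lyz2 is part of. By gene, the fitted change was above 0 for 10 of the 15 markers without the block and for 12 with it. With the block, 1 was higher and 1 lower in KO at an unadjusted p under 0.05. Libraries numbered 1 and 2 stood apart from those numbered 3 and 4 in both genotypes. All libraries numbered 3 and 4 lay above all numbered 1 and 2 for 25.1% of genes tested, and below them for 24.4%. The labels name no batch for these numbers.

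Per length of gene, in the deposited RPKM, Mrc1 had the highest mean over the 8 libraries at 82.8, followed by Il4ra at 54.2 and Tgm2 at 31.96. Mrc1 was above Il4ra in 5 of 8 libraries and Il4ra above Tgm2 in 6 of 8, so the order within these 3 was not the same in every library. All 3 lay in the upper range of the transcriptome, Mrc1 above 92.2% to 97.7% of all genes depending on the library, Il4ra above 89.9% to 96.7%, and Tgm2 above 86.8% to 92.3%. A second tier followed: Clec10a at 3.35 RPKM, Chil3 at 3.22 and Mgl2 at 1.25. Tgm2 exceeded Clec10a in 8 of 8 libraries, whereas Clec10a exceeded Chil3 in 3 of 8, and those 2 levels could not be ordered. Ccl24 (0.180 RPKM), Pdcd1lg2 (0.0534) and Arg1 (0.0527) came last, and Mgl2 was above Ccl24 in 8 of 8 libraries. Mrc1, Il4ra and Tgm2 were thus abundant, and Ccl24, Pdcd1lg2 and Arg1 were near the limit of detection. Clec10a above 50.4% to 71.1%, Chil3 above 47.7% to 69.1% and Mgl2 above 38.7% to 59.2% of all genes were in the middle range.

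**Figure D1:**
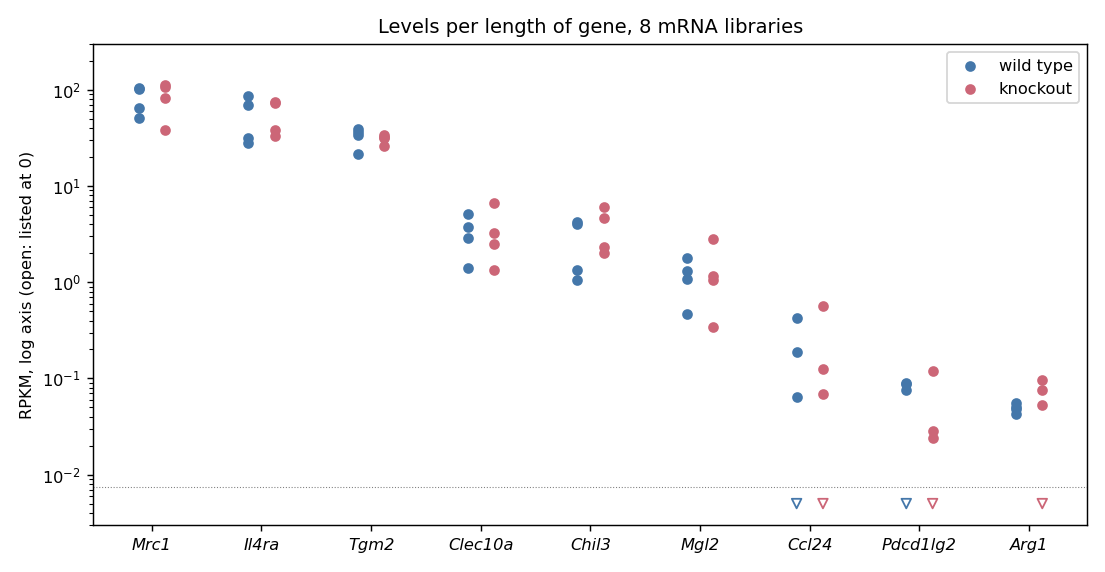
Deposited RPKM (log axis) of the 9 genes with a row in each of the 8 mRNA libraries, WT in blue and KO in red, with open triangles under the dotted line for libraries in which a gene is listed at 0. Mrc1, Il4ra and Tgm2 lie between 21.4 and 113.7 RPKM, Clec10a, Chil3 and Mgl2 between 0.340 and 6.61, and the last 3 genes at or under 0.570.

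None of the 6 tested genes passed the test between the genotypes. At an adjusted p under 0.05 in edgeR, 0 of 6 were called, against 0 of 14019 genes (0.0%), and at an unadjusted p under 0.05 also 0 of 6, against 0.578% of genes. With the replicate number as a block, 0 of 6 were called (0.0357% of genes), and 1 of 6, Chil3, had an unadjusted p under 0.05 (9.42% of genes). DESeq2 also called 0 of 6, without the block (0.0214% of genes) and with it (0.585%). The fitted change was above 0 for 5 of 6 without the block and for 4 of 6 with it. Over all 14019 genes tested it was above 0 for 6949 without the block and for 7029 with it. These 2 counts are the background for the counts by direction in the gene and marker lists. The median log2 fold change of the 6 genes was 0.07, beside -0.0017 over all genes tested. For none of the 6 did all KO libraries lie above all WT libraries (0.35% of genes) or below them (0.435%). The adjusted p of each of the 6 genes was 0.9999 in edgeR without the block, and is not repeated below.

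**Figure D2:**
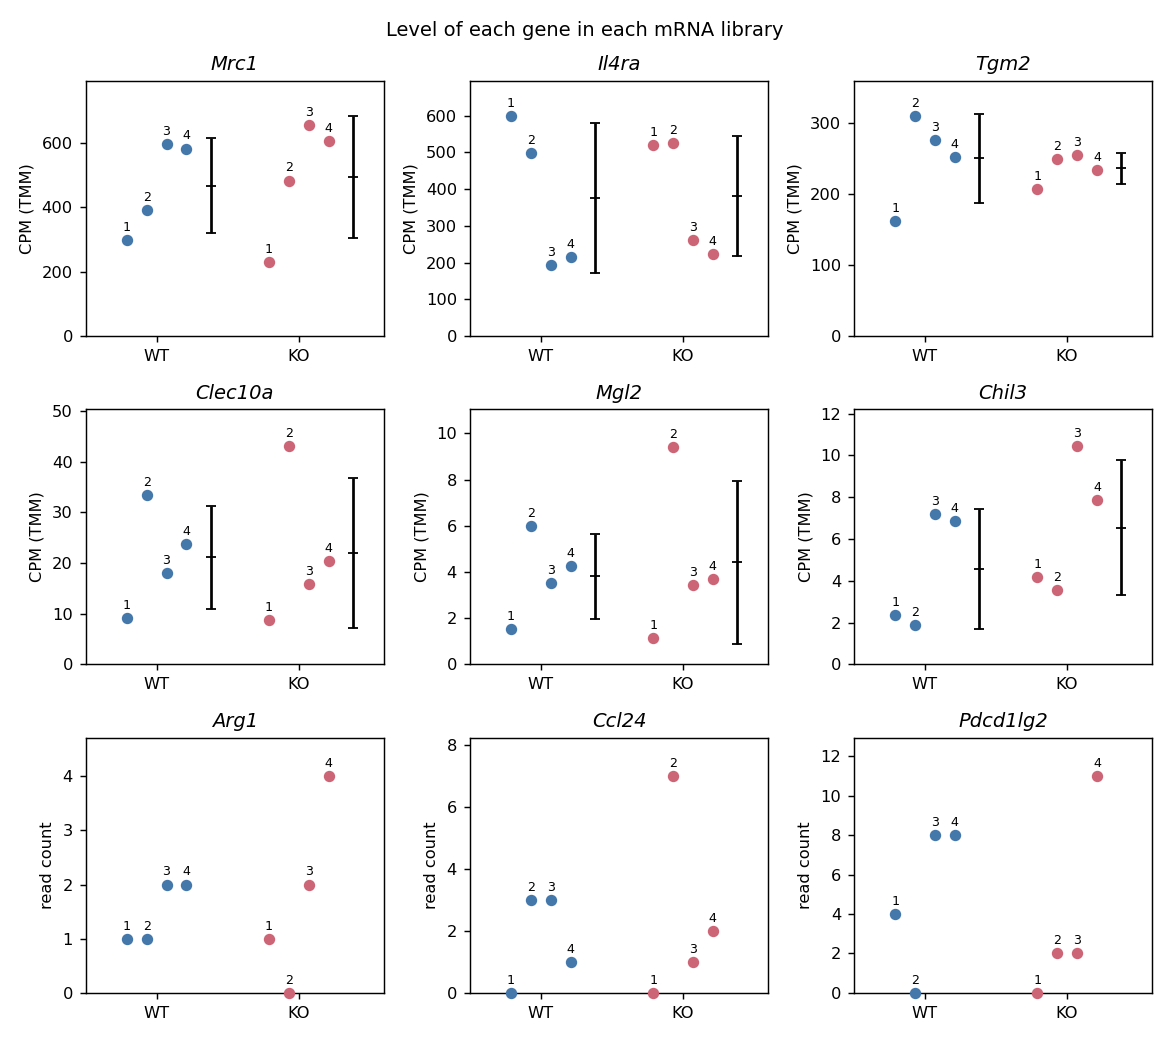
Level of each gene in each mRNA library, WT in blue and KO in red, with the replicate number beside each point. The upper 6 panels give TMM-scaled CPM with the mean and SD at the right of each genotype (n = 4), and the lower 3 give raw read counts, which follow the depth of the library. Mrc1 and Chil3 are high and Il4ra is low in numbers 3 and 4 of both genotypes, and in every panel the genotypes overlap.

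Il4ra (ENSMUSG00000030748) encodes the receptor chain through which both IL-4 and IL-13 signal. It was measured at 598.4, 498.2, 192.4 and 214.2 CPM in WT numbers 1 to 4, and at 520.6, 525.3, 261.0 and 221.9 CPM in KO numbers 1 to 4. The genotypes overlapped, while the libraries numbered 1 and 2 were high and those numbered 3 and 4 low in each. Levels in numbers 1 and 2 were 2.70-fold those in numbers 3 and 4 in WT, and 2.17-fold in KO. Between genotypes the means were 375.8 ± 203.5 and 382.2 ± 163.3 CPM (SD, n = 4), and the log2 fold change was 0.02 (SE 0.44, 95% interval -0.97 to 1.02). With the block the interval narrowed to -0.12 to 0.31 around 0.09 (SE 0.10, edgeR adjusted p = 0.794). Il4ra was the single gene of the 6 with numbers 3 and 4 wholly below numbers 1 and 2, a pattern shared by 24.4% of all genes tested.

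Mrc1 (ENSMUSG00000026712), the mannose receptor CD206, takes up glycoproteins with terminal mannose and is a common surface marker of alternatively activated macrophages. It was measured at 298.2, 392.0, 598.0 and 583.4 CPM in WT numbers 1 to 4, and at 229.8, 483.8, 657.0 and 607.8 CPM in KO. Here numbers 3 and 4 were high in both genotypes, 1.71-fold numbers 1 and 2 in WT and 1.77-fold in KO, the reverse of Il4ra. The genotype means were 467.9 ± 147.0 and 494.6 ± 191.0 CPM (SD, n = 4), with a log2 fold change of 0.08 (SE 0.35, 95% interval -0.70 to 0.86). With the block it was 0.03 (SE 0.10, interval -0.19 to 0.26, edgeR adjusted p = 0.936). By number, the log2 ratio of KO to WT was -0.38, 0.30, 0.14 and 0.06, so pair 1 went the other way from the rest. The 3 genes with the pattern most like Mrc1 over the 8 libraries were Agap1, Ptpn22 and Mcee, whose centred log2 CPM differed from that of Mrc1 by a root mean square of 0.0939, 0.0991 and 0.103 (12950 genes compared).

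Clec10a (ENSMUSG00000000318) and Mgl2 (ENSMUSG00000040950) encode the paralogous C-type lectins MGL1 and MGL2, which bind galactose-type sugars. They lie next to each other on chromosome 11, with 0 protein-coding genes between them in the RefSeq table. How the authors' counting treated reads that fit both copies is not given in the sources used here, so their split is uncertain. Clec10a was measured at 9.13, 33.5, 18.1 and 23.8 CPM in WT numbers 1 to 4, and at 8.79, 43.1, 15.8 and 20.3 CPM in KO. Mgl2 followed the same order at a lower level, with 1.52, 5.98, 3.53 and 4.27 CPM in WT and 1.15, 9.43, 3.44 and 3.69 CPM in KO. For both genes number 1 was the lowest and number 2 the highest library of each genotype, and the genotypes overlapped. The log2 fold change was 0.07 for Clec10a (SE 0.50, 95% interval -1.07 to 1.21) and 0.24 for Mgl2 (SE 0.59, interval -1.09 to 1.56). With the block, Clec10a was at -0.02 (SE 0.12, interval -0.28 to 0.24, edgeR adjusted p = 0.965). Mgl2 was then at 0.08 (SE 0.20, interval -0.37 to 0.52, edgeR adjusted p = 0.922). Mgl2 made up 14.3% to 16.3% of the counts of the pair in the WT libraries and 11.5% to 17.9% in the KO libraries. The exact 95% binomial intervals of these shares, which cover counting error only, overlapped between all 8 libraries.

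Tgm2 (ENSMUSG00000037820) encodes transglutaminase 2, a protein cross-linking enzyme that IL-4 induces in both mouse and human macrophages. It was measured at 162.6, 309.9, 275.9 and 252.5 CPM in WT numbers 1 to 4, and at 206.4, 249.0, 255.1 and 234.2 CPM in KO. Number 1 was the lowest library in each genotype, and the 4 KO values lay inside the WT range. The log2 fold change was -0.08 (SE 0.21, 95% interval -0.55 to 0.39), and -0.05 with the block (SE 0.10, interval -0.27 to 0.17, edgeR adjusted p = 0.893). Tgm2 was the single gene of the 6 with a fitted change below 0 without the block.

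Chil3 (ENSMUSG00000040809), the chitinase-like protein Ym1, was the one gene that was higher in KO in all 4 number pairs, but it did not pass the test. It was measured at 2.35, 1.87, 7.21 and 6.84 CPM in WT numbers 1 to 4 (34, 20, 184 and 170 counts), and at 4.20, 3.58, 10.5 and 7.87 CPM in KO (33, 68, 243 and 205 counts). The KO library was the higher of each pair, while numbers 3 and 4 were high in both genotypes, so that WT numbers 3 and 4 exceeded KO numbers 1 and 2 and the genotypes overlapped. The log2 ratio of KO to WT by number was 0.84, 0.94, 0.54 and 0.20. A gene higher in KO in all 4 pairs was not rare, since 9.47% of all genes tested were. No gene of the 6 was lower in all 4 pairs (8.12% of genes). The fitted log2 fold change was 0.51 (SE 0.52, 95% interval -0.66 to 1.67) from means of 4.57 ± 2.85 CPM in WT and 6.53 ± 3.23 CPM in KO (SD, n = 4). With the block it was 0.55 (SE 0.17, interval 0.17 to 0.92, edgeR adjusted p = 0.328). Over the 20 alternative settings the Chil3 change stayed between 0.18 and 0.87, and its adjusted p between 0.328 and 1.0 over the edgeR and DESeq2 fits.

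The differences within each number set were also given for Chil3, since the sets stood apart. It was 0.87 (SE 0.39) in numbers 1 and 2 alone and 0.37 (SE 0.19) in numbers 3 and 4 alone. The difference between these, tested as an interaction of genotype with number set in edgeR, had an adjusted p of 0.9998, and the interaction called 0 of 6 genes (0.0% of genes tested). Within numbers 3 and 4 alone, where 0.0975% of genes were called, 0 of 6 were called. Numbers 3 and 4 were 3.33-fold numbers 1 and 2 in WT and 2.35-fold in KO. Chil3 and Mrc1 were the 2 of 6 genes with numbers 3 and 4 wholly above numbers 1 and 2 (25.1% of genes tested). The 3 genes with the pattern most like Chil3 were Tmem144, Gm14013 and Zfp65, at root mean square differences of 0.249, 0.25 and 0.256 in centred log2 CPM.

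**Figure D3:**
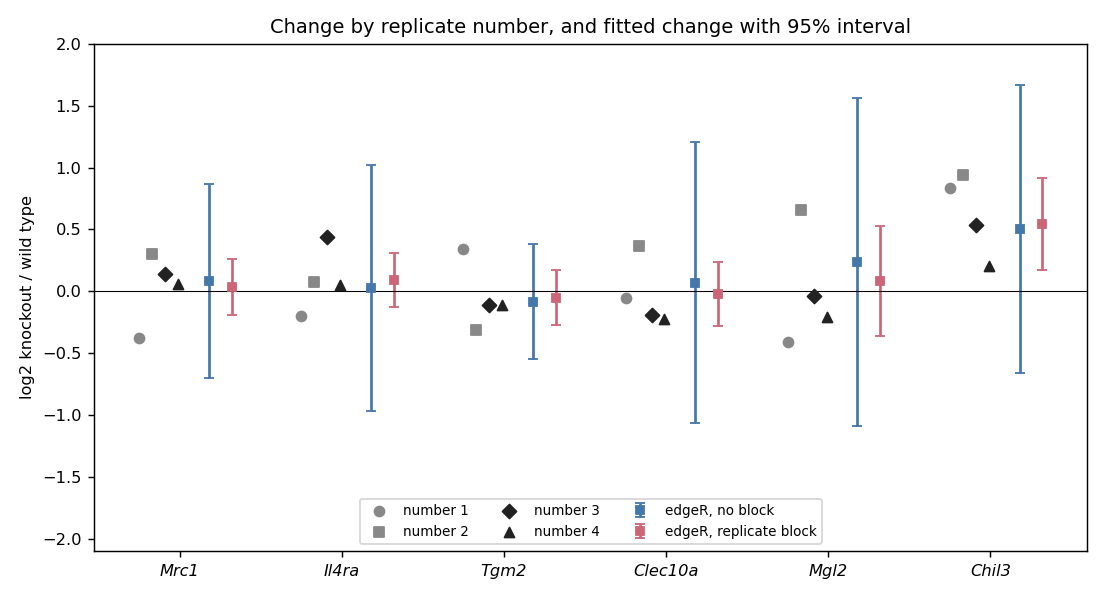
Log2 ratio of KO to WT for each replicate number (grey, numbers 1 and 2; black, numbers 3 and 4) and the log2 fold change fitted by edgeR with its 95% interval, without (blue squares) and with (red squares) the replicate block, for the 6 tested genes. Chil3 is the one gene with 4 of 4 ratios above 0, and with the block its interval runs from 0.17 to 0.92.

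Chil3 has near copies in the mouse genome, and Chil4, which encodes the related Ym2, was measured at 0.566 ± 0.294 CPM in WT and 0.8997 ± 0.2522 CPM in KO (SD, n = 4). Its log2 fold change with the block was 0.51 (SE 0.41, edgeR adjusted p = 0.715), and reads that fit both copies may have been split between them. Chil3 is also expressed by neutrophils and their marrow precursors. Of 14 markers of those cells 10 were tested, and the list's summed level was 110 to 152 CPM in WT and 140 to 195 CPM in KO. The KO library was the higher in each pair, at 140, 195, 178 and 152 CPM for numbers 1 to 4 against 110, 152, 121 and 123 CPM. The fitted change was above 0 for 9 of the 10 tested markers without the block and for 8 with it. With the block 6 of 10 were higher in KO at an unadjusted p under 0.05 (4.9% of genes were). The defining neutrophil markers Ly6g, Camp, Retnlg and Cxcr2 were under 0.5 CPM in all 8 libraries. The part of these cells in the Chil3 values was not tested. In bulk libraries, more cells of a type and more RNA per cell cannot be told apart.

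Other marker lists differed between the number sets, as Mrc1, Chil3 and Il4ra did. Dendritic cell markers, a list that includes the antigen presentation genes Cd74, H2-Aa and H2-Ab1, summed to 111 to 282 CPM in numbers 1 and 2. In numbers 3 and 4 they summed to 1110 to 1340 CPM. Mast cell, basophil and eosinophil markers summed to 11.2 to 18.5 and 24.8 to 28.5 CPM, and lymphocyte markers to 193 to 250 and 333 to 453 CPM, in the same order of sets. Endothelial markers were at 42.1 to 53.5 and 101 to 132 CPM. Stromal markers went the other way, with 299 to 417 CPM in numbers 1 and 2 and 197 to 261 CPM in numbers 3 and 4, as Il4ra did. The fitted change of 15 of 15 tested stromal markers was above 0, and with the block it was above 0 for 14 of 15, of which 9 were higher in KO at an unadjusted p under 0.05 (4.9% of genes were). Markers under 0.5 CPM in all 8 libraries included Fcer1a and Il5ra of the mast cell, basophil and eosinophil list, Cd3e, Cd3d, Cd8a, Ms4a1 and Ncr1 of the lymphocyte list, Lum of the stromal list and Tek of the endothelial list. No marker with a row was at 0 in all 8 libraries. The part of any of these in the levels of the 10 genes was not tested.

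Arg1 (ENSMUSG00000019987), which hydrolyses arginine to ornithine and urea and is the most used marker of the state, was almost undetected. It had 1, 1, 2 and 2 counts in WT numbers 1 to 4 and 1, 0, 2 and 4 counts in KO, 6 and 7 in all. Ccl24 (ENSMUSG00000004814), eotaxin-2, had 0, 3, 3 and 1 counts in WT and 0, 7, 1 and 2 in KO. Pdcd1lg2 (ENSMUSG00000016498), the T cell inhibitory ligand PD-L2, had 4, 0, 8 and 8 counts in WT and 0, 2, 2 and 11 in KO, 20 and 15 in all. The upper limit that a count of 0 allows, 3 counts, corresponds to 0.1152 CPM in the deepest library and 0.3822 CPM in the shallowest. No fold change is given for these genes, because a difference between genotypes was not detectable at this depth.

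The receptor and signalling genes upstream of the set were then read from the same fit. Of 20 genes of IL-4 and IL-13 receptor and STAT6 signalling, 17 were tested and 0 were called, with a median log2 fold change of 0.11. Fitted changes were above 0 for 13 of the 17. Stat6, the transcription factor itself, was at 282.9 ± 66.9 CPM in WT and 287.7 ± 62.9 CPM in KO (SD, n = 4), with a log2 fold change of 0.02 (SE 0.23). The common gamma chain gene Il2rg was at 128.9 ± 37.5 and 146.6 ± 59.3 CPM, and Il13ra1, the partner chain for IL-13, at 7.64 ± 5.79 and 7.35 ± 3.39 CPM. The receptor chains and STAT6 were thus expressed in both genotypes. The kinase genes Jak1 (246.0 and 254.7 CPM), Jak3 (48.5 and 50.2 CPM) and Tyk2 (117.0 and 131.7 CPM) differed by less than their spread between libraries. That spread includes the difference between number sets. By pair, KO was higher in 3, 2 and 4 of 4 for Jak1, Jak3 and Tyk2. With the block, unadjusted p-values fell under 0.05 for 3 of 17, all higher in KO (4.9% of genes were). They were Cblb, a ubiquitin ligase (0.39, SE 0.11, edgeR adjusted p = 0.294), the feedback inhibitor Socs1 (0.33, SE 0.14, edgeR adjusted p = 0.499) and Tyk2 (0.19, SE 0.08, edgeR adjusted p = 0.525).

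Of 14 transcription regulators of alternative activation, 14 were tested and 0 called, with a median of 0.08 and 10 of 14 fitted changes above 0. Irf4, a STAT6 partner, was at 1.40 ± 0.674 CPM in WT and 1.72 ± 0.603 CPM in KO, Klf4 at 14.2 ± 5.21 and 15.3 ± 2.27 CPM, and the nuclear receptor gene Pparg at 16.8 ± 11.3 and 17.4 ± 9.41 CPM (SD, n = 4). None of these 3 differed by more than its SD, a spread that includes the difference between number sets. With the block their log2 fold changes were 0.28 (SE 0.24), 0.15 (SE 0.14) and 0.11 (SE 0.12). The smallest p-values of this list with the block belonged to the histone demethylase gene Kdm6b (0.27, SE 0.08, edgeR adjusted p = 0.302) and to the nuclear receptor gene Ppard (0.21, SE 0.11, edgeR adjusted p = 0.569).

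Of 32 other alternative activation genes, 21 were tested and 0 were called in edgeR, with 15 of 21 fitted changes below 0 and a median of -0.20. With the block, 7 were lower at an unadjusted p under 0.05 (4.52% of genes) and 2 higher (4.9%), and DESeq2 with the block called 3 of 21 lower (0.585% of genes were called in either direction). Those 3 were Cd36, the scavenger receptor for oxidised lipids, Msr1, the class A scavenger receptor, and Clec7a, the beta-glucan receptor dectin-1, which was named after its values were seen. Cd36 was lower in 4 of 4 pairs, at 340.3, 287.7, 1246 and 1161 CPM in WT numbers 1 to 4 and 231.9, 253.7, 811.5 and 677.4 CPM in KO. Its log2 fold change with the block was -0.53 (SE 0.10), with an adjusted p of 0.0879 in edgeR and 0.000291 in DESeq2. Msr1 was at -0.37 (SE 0.08), with adjusted p of 0.171 and 0.0434, and Clec7a at -0.65 (SE 0.15), with 0.171 and 0.0136. With all pairs, edgeR with the block thus called none of the 3. Without pair 2 it called Cd36 (adjusted p = 0.0312) and Clec7a (adjusted p = 0.0415), among 29 of 14192 genes. Without pair 1, 3 or 4 it called none of the 3. Cd36 also had the set pattern of Mrc1, higher in numbers 3 and 4 of each genotype.

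Arginine and polyamine genes, the pathway Arg1 feeds, were tested for 14 of 14 members, with 0 called in edgeR, a median of -0.08 and 10 of 14 fitted changes below 0. Arg2, the mitochondrial arginase, was at 1.39 ± 0.240 CPM in WT and 1.24 ± 0.687 CPM in KO, and Odc1, which turns ornithine into putrescine, at 8.87 ± 3.27 and 8.62 ± 2.55 CPM (SD, n = 4). Nos2, the inducible nitric oxide synthase that competes for arginine and marks classical activation, was lower in KO in 4 of 4 pairs. It was measured at 9.76, 6.26, 3.96 and 6.08 CPM in WT numbers 1 to 4 and at 5.48, 1.26, 1.94 and 4.26 CPM in KO. Its log2 fold change with the block was -1.07 (SE 0.25), with an adjusted p of 0.192 in edgeR and 0.0209 in DESeq2. Ass1, which regenerates arginine from citrulline, was at -0.45 (SE 0.13, edgeR adjusted p = 0.287 with the block).

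Of 20 classical activation genes, taken for comparison, 14 were tested, 0 were called in edgeR and the median was 0.04. Nos2, which is in this list too, and Ptgs2, the inducible cyclooxygenase (-1.03, SE 0.24, edgeR adjusted p = 0.196 with the block), had its smallest p-values, and 9 of 14 fitted changes were above 0.

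**Figure D4:**
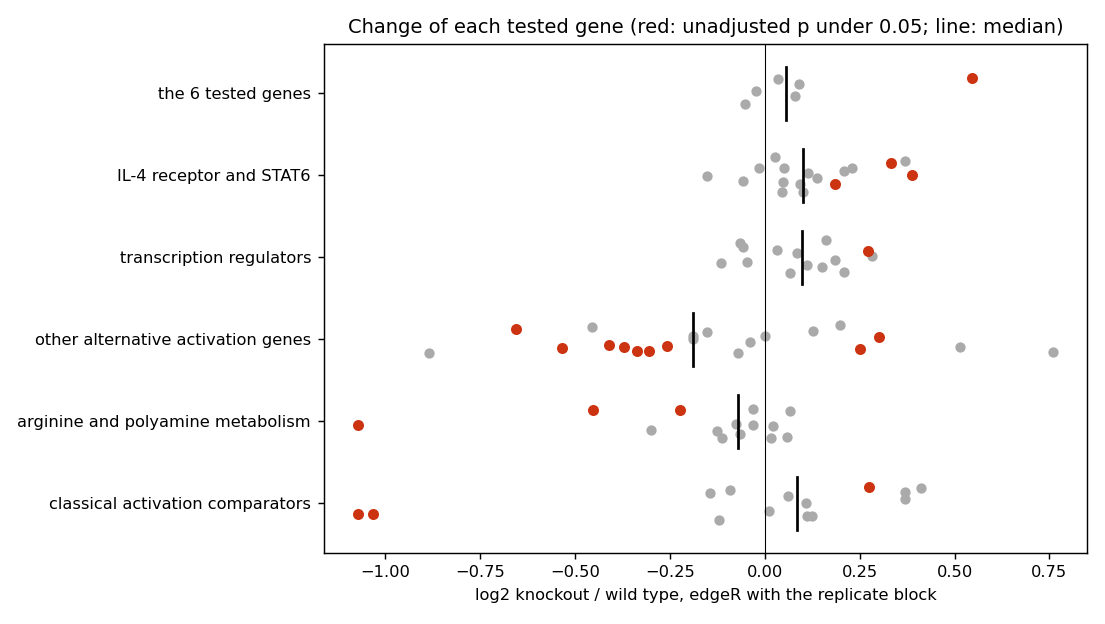
Log2 fold change of KO over WT, fitted by edgeR with the replicate block, for each tested gene (points) of the 6 and of the 5 related lists, with the median of each list as a vertical line and genes at an unadjusted p under 0.05 in red. Chil3 is the red point among the 6, and 7 of the 9 red points among the other alternative activation genes lie below 0. Nos2 is in both of the last 2 lists.

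AGO2 occupancy was read from 1 PAR-CLIP library per genotype, so the values below compare those libraries and have no replicate check, and their exact binomial intervals cover counting error only. PAR-CLIP crosslinks a modified uridine to the bound protein, and the crosslinked base is read as a T-to-C conversion. The deposited groups numbered 66451 in WT, with 6287870 reads, and 85458 in KO, with 6445262 reads. In each library 10 groups belonged to the 10 genes. They held 437 reads in WT, 69.5 RPM (reads per 1000000 group reads of the library, 95% interval 63.1 to 76.3), and 230 in KO, 35.7 RPM (31.2 to 40.6).

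Mrc1 held most of these reads. In WT, 5 Mrc1 groups had 346 reads, 55.0 RPM (49.4 to 61.1), and in KO 4 groups had 173 reads, 26.8 RPM (23.0 to 31.2). The log2 ratio of KO to WT was -1.04, and 14.4% of the 5117 genes with groups in both libraries and at least 100 reads had a lower ratio, around a median of -0.169. The log2 fold change of Mrc1 mRNA, from other libraries, was 0.08 (interval -0.70 to 0.86), and the part of the mRNA level in the AGO2 reads was not tested. The library as a whole also differed, since groups in 3′ UTRs held 28.01% of all group reads in WT and 23.39% in KO.

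Most Mrc1 reads lay in the 3′ UTR group with the ATTTA and miR-23a-3p letters shown above. It had 259 reads in WT, 41.2 RPM (36.3 to 46.5), and 87 reads in KO, 13.5 RPM (10.8 to 16.7), a log2 ratio of -1.61. Among the 1116 3′ UTR groups with the same ends in both libraries and at least 100 reads, the median ratio was -0.459 and 10.1% had a lower one. Conversion events were fewer too. There were 240 in the WT group, equal to 92.7% of its read count, and 51 in the KO group, 58.6% (47.6% to 69.1%). The KO library was also lower on another measure, the share of all 3′ UTR groups with any conversion, 86.9% in WT and 81.6% in KO. Conversion events per read were not computed over all 3′ UTR groups. Conversions fell at 2 positions in WT and at 1 in KO, so a WT read may hold more than 1 event. No interval is given for WT for that reason. The group was thus found in both genotypes, with fewer reads and fewer conversion events per read in the KO library.

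ATTTA occurred in 7.48% of all WT and 6.33% of all KO 3′ UTR groups, searched on the strand of the group, and the miR-23a-3p match in 1.81% and 1.87%. miR-23a-3p made up 0.608% of the small RNA counts on average over the 4 libraries, miR-27b-3p 1.19%, miR-27a-3p 0.548% and miR-24-3p 4.29%. The match to the miR-27 seed occurred in 2.86% of WT coding groups and that to miR-24-3p in 1.28%. A match to any of the 18 seed families searched, from 27 of the 30 most abundant miRNAs, occurred in 18.3% of WT 3′ UTR groups and 16.2% of WT coding groups. A match describes the letters of a group and does not show that the miRNA was bound there.

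In the Mrc1 coding sequence the miR-27 group had 36 reads in WT, with 36 conversion events at 2 positions. The miR-24 group had 20 reads with 0 conversions. Neither had an overlapping group in KO. Of the 10747 WT coding groups, 1534 had a KO group with the same ends, and overlaps with other ends were not counted. A further coding group at chr2:14249461-14249486 had 22 reads in WT and 32 in KO, a log2 ratio of 0.51. In KO the coding group with most reads, at chr2:14246855-14246883, had 42 reads and no counterpart in WT. In all, the Mrc1 coding groups had 78 reads in WT (12.4 RPM) and 74 in KO (11.5 RPM), and the 3′ UTR groups 268 (42.6 RPM) and 99 (15.4 RPM).

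Il4ra and Tgm2 had few reads. Il4ra had 2 coding groups with 44 reads in WT, 7.0 RPM (5.08 to 9.39), of which the one at chr7:132720346-132720368 had 27 reads, all converted, and the one at chr7:132709190-132709209 had 17, none converted. In KO it had 1 intron group of 13 reads without conversion, 2.02 RPM (1.07 to 3.45). Il4ra thus had no group in common between the libraries and none in its 3′ UTR. Tgm2 had 3 groups with 47 reads in WT, 7.47 RPM (5.49 to 9.94), and 3 with 28 reads in KO, 4.34 RPM (2.89 to 6.28), and the intervals overlapped. The Tgm2 group with most reads in WT, at chr2:157943272-157943296 in the 3′ UTR, had 21 reads and no counterpart in KO. Its coding group at chr2:157964629-157964648 had the same ends in both, with 13 and 11 reads. Over all genes, 1534 of 10747 WT coding groups and 2915 of 22109 WT 3′ UTR groups had the same ends in KO. Groups that overlap with other ends were not counted. No Il4ra or Tgm2 group held a match to the miRNAs searched.

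Chil3, the gene with the highest fitted mRNA change, had 0 reads in WT and 1 intron group of 5 reads without conversion in KO. Pdcd1lg2 had 0 reads in WT and 1 intron group of 11 reads without conversion in KO, and 26.5% of all KO intron groups held a conversion. Arg1, Retnla, Clec10a, Mgl2 and Ccl24 had no listed group in either library. The deposited lists hold groups of at least 5 reads, so reads below that number per site may have been present. AGO2 reads were thus found mainly on the 3 abundant mRNAs of the set.

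**Figure D5:**
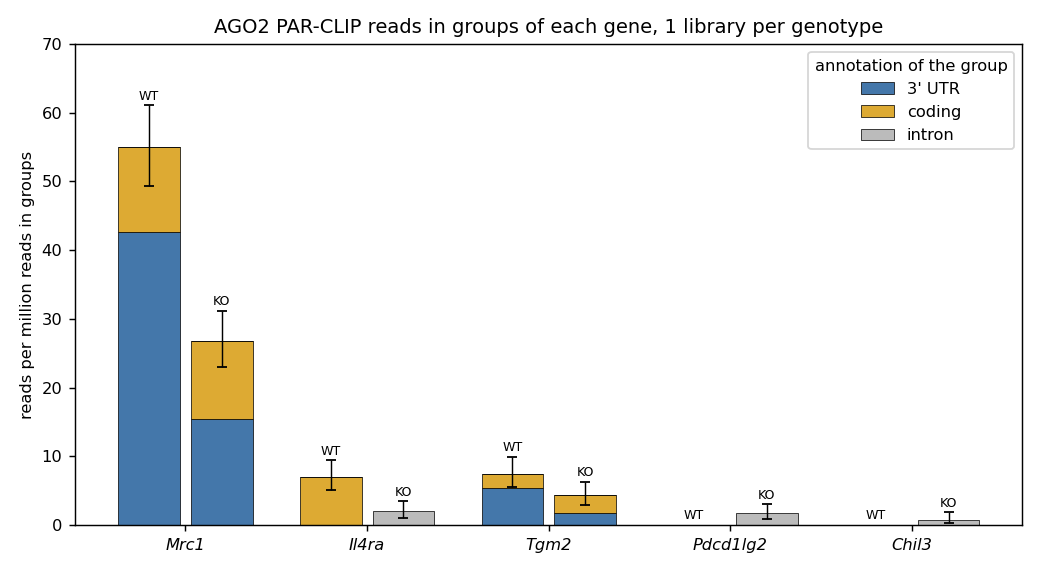
AGO2 PAR-CLIP reads in groups of each gene, in RPM, for WT (left bar) and KO (right bar), 1 library each, coloured by the annotation of the group. Error bars are exact 95% binomial intervals (counting error only), and none is drawn where no group is listed. Mrc1 has 55.0 RPM in WT and 26.8 in KO, of which 42.6 and 15.4 RPM are in 3′ UTR groups.

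Promoter windows of 250 bases before to 50 after the gene start, from RefSeq (GRCm38.p6), were at hand for 6 of the 10 genes: Chil3, Retnla, Mrc1, Mgl2, Il4ra and Pdcd1lg2. They were searched for the palindromic letters that STAT6 and other STAT proteins bind, TTC and GAA parted by 4 or by 3 bases of any kind, which read the same on both strands. The form with 4 bases was found in Retnla, starting at position -145 from the gene start, and in Pdcd1lg2, at -82, and that with 3 in Chil3, at -172. They are shown because they are the 3 windows of the set with a match, in the strand of the gene and with the match in capitals.
Retnla: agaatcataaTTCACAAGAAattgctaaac
Pdcd1lg2: catgctccagTTCCTCAGAAaccattctgg
Chil3: aaatacccacTTCTTAGAAacatagctat
Of all 32851 promoter windows, 6.95% held the form with 4 bases and 8.3% that with 3. These matches are letters in a window, and no binding of STAT6 was measured. In these cells, for which no stimulus is named, Pdcd1lg2 was near the limit of detection and Chil3 in the middle range, in both genotypes.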

How the data were processed

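For each gene and library the authors deposited a raw count and its RPKM, which scales reads to gene length and library size. The submitters' processing notes name the mm9 build, CASAVA 1.8.2 and Bowtie 0.12.7, with no role for either, and the counting rule is not given in the sources used here. The AGO2 files hold, per the file headers, read counts and conversion counts of each group with its position and sequence, and the small RNA files hold deposited counts per miRNA, beside 1 fraction column whose heading names another sample and which was not used.

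Ensembl identifiers were given symbols from RefSeq tables (19328 of 21444 matched). Counts were tested with edgeR 4.0.16 (R 4.3.3): filterByExpr, TMM scaling, the quasi-likelihood test with genotype alone over 14019 genes, and Benjamini-Hochberg adjustment over all of them, at 0.05. Alternatives were a replicate block, a block by number set, DESeq2 1.42.0, RLE scaling, no filter, and left-out libraries or pairs. Libraries of equal number deviated together from their genotype means (correlations 0.770, 0.810, 0.745 and 0.801), so the numbers were taken to pair the libraries. Unequal numbers within 3 and 4 correlated as highly (0.832 and 0.764) and those within 1 and 2 less (0.241 and 0.344), so the pairing of 3 and 4 shows the shared set and not the number. CPM in the text is TMM-scaled and intervals are at 95%. A pattern likeness is the root mean square difference of centred log2 CPM over 8 libraries, for genes of at least 1 CPM on average. Seeds were searched for 27 of the 30 miRNAs with the highest mean share that had a sequence. The code was tested on simulated data.

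The 10 genes, the lists and the rule for named genes (all 10, key genes of each list and the 2 genes of smallest p with the block per list) were chosen with earlier results of these data known. The level of 1 marker of the lymphocyte list is not reported here.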

Additional observations from a re-analysis of the deposited data

Results flagged for a closer look

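Pdcd1lg2 in WT was marked because its lowest library stood apart from the other 3 by a gap of 0.859 of the whole range, above the 95% critical value of Dixon's test for 4 values. No other gene of the set with a row passed that value in either genotype. WT number 2 had 0 counts of Pdcd1lg2 (0 CPM), while the other WT libraries had 4, 8 and 8 counts. At its depth a count of 0 allows up to 0.280 CPM, which reaches the 0.277 CPM of WT number 1. The same rule by chance marks about 1 in 20 groups.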

How the results depend on the processing

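None of the 6 tested genes was called in any of the 20 alternative fits. The number of all genes called was 0 without a block, 5 with the replicate block, 1 with number set as block, 3 with DESeq2 and 82 with DESeq2 and the block. It was 14 in numbers 3 and 4 alone, and with the replicate block 4, 29, 7 and 3 without pair 1, 2, 3 and 4. Pathway list genes called were 4 of 78 with DESeq2 and the block and 2 of 81 with the replicate block without pair 2, against 0 of 78.

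Chil3 kept its direction in all 20 fits (0.18 to 0.87). Clec10a turned to -0.02 with the replicate block in edgeR and in DESeq2 (-0.0227 and -0.0245), and to -0.21 in numbers 3 and 4 alone. With the replicate block it was also below 0 without pair 1 (-0.017) and without pair 2 (-0.17). Il4ra turned to -0.071 in numbers 1 and 2 alone and to -0.023 with the replicate block without pair 3. Mgl2 was -0.14 in numbers 3 and 4 alone. With the replicate block without pair 2, Mgl2 was -0.18, Mrc1 -0.058 and Tgm2 0.035. Leaving out 1 library at a time gave -0.48 to 0.38 for Clec10a, -0.19 to 0.34 for Il4ra, -0.43 to 0.53 for Mgl2, -0.093 to 0.31 for Mrc1 and -0.24 to 0.036 for Tgm2. The median of the 6 genes then ran from -0.14 without KO number 2 to 0.32 without KO number 1. The causes were not tested.

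The 10 AGO2 groups became 6 in WT and 3 in KO at 20 or more reads, 2 and 0 at 2 or more conversion positions, and 4 and 3 in 3′ UTRs. Apart from these counts and directions, the replicate block changed no call of the 6 genes. Depth limits Arg1, Ccl24 and Pdcd1lg2, and AGO2 occupancy has 1 library per genotype.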

Other observations

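The levels of Mrc1 and Il4ra, the 2 most abundant genes of the set, traded places between the number sets. In RPKM, Il4ra was above Mrc1 in WT number 1 (86.2 against 51.1), WT number 2 (69.9 against 65.4) and KO number 1 (72.9 against 38.3). Mrc1 was the higher in the other 5 libraries, for example at 103.8 against 28.1 in WT number 3 and 107.0 against 32.9 in KO number 4. KO number 2, at 81.6 for Mrc1 and 74.5 for Il4ra, was the one library numbered 1 or 2 with Mrc1 above Il4ra. The labels name no difference in culture between these libraries, and the cause was not tested.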
